A study of Mus musculus with 6 samples.

Results

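Ubiquitylated histone H2B (H2Bub) was compared between growing muscle precursor cells and myotubes over 4 genes of the fibrous extracellular matrix, Col1a1, Col1a2, Col3a1 and Fn1. They were chosen by name, as 4 gene intervals on genome build mm9 among 250807 windows of 10 kb with reads in the whole series, and all 4 are described. Chromatin was from C2C12, a mouse myoblast line that stops dividing and fuses into myotubes when serum is withdrawn; the source names spell it C1C12. Growing myoblasts (MB, 3 libraries) were kept in 10% fetal bovine serum and taken at about 40% confluency. Myotubes (MT, 3 libraries) were confluent cells switched to 2% horse serum for 96 h, with fresh medium on day 2. The labels name no genetic change in either group. Chromatin was digested with micrococcal nuclease mostly to single nucleosomes and precipitated with an H2Bub antibody. The labels give every library its own antibody lot number, but these numbers run consecutively through the samples, so whether the lots truly differed is unclear. If they did, lot cannot be told apart from library or group. Whether the 3 libraries of a group were made from different dishes is not stated, so their spread, on which every p-value rests, may be technical only. The files hold no RNA, so expression of these genes, and of markers for the labelled cell states, was not measured here, and fewer cells with the mark cannot be told apart from less of it per cell.

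H2Bub is ubiquitin attached to histone H2B by the Rnf20 and Rnf40 ligase while RNA polymerase II moves along a gene, so the mark lies over transcribed gene bodies and is low just upstream of the start. Col1a1 and Col1a2 encode the chains that wind together into type I collagen, the main fibre of tendon, bone and skin. Col3a1 encodes type III collagen of elastic tissues and of the connective tissue around muscle fibres. Fn1 encodes fibronectin, a glycoprotein that cells assemble into fibrils and bind through integrins, and on which collagen fibrils are laid down.

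The intervals were chromosome 11, 94797000 to 94815000, for Col1a1 (18 kb), chromosome 6, 4455000 to 4492000, for Col1a2 (37 kb), chromosome 1, 45368000 to 45407000, for Col3a1 (39 kb), and chromosome 1, 71632000 to 71700000, for Fn1 (68 kb). No mm9 annotation was at hand. The RefSeq table used here is on GRCm38.p6, where the 4 genes are 16.8, 35.9, 38.2 and 67.8 kb long, so each interval is slightly longer than its gene; no coordinates were carried between the builds. Col1a1, Col1a2 and Col3a1 are read from left to right and Fn1 from right to left. In the same table the protein-coding neighbours on the 3' side are Sgca (a sarcoglycan of muscle), Casd1, Col5a2 (a chain of type V collagen) and Atic (a purine synthesis enzyme), in the order of the genes above, and no other protein-coding gene overlaps the 4.

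Promoter sequences of Col1a2 and Col3a1 are shown because the H2Bub density of both genes relative to their flanks was lower in every myotube library, as described below, and their starts are sharply different in base composition. They run from 250 bases before to 50 after the annotated start in RefSeq on GRCm38.p6, at chr6:4505368-4505667 and chr1:45311288-45311587, plus strand. Col1a1 and Fn1 were not matched. Capitals mark letter matches on either strand to the TATA box, spelled TATAAA, to the CCAAT box, which its name spells, and to the GC box, spelled GGGCGG.
Col1a2: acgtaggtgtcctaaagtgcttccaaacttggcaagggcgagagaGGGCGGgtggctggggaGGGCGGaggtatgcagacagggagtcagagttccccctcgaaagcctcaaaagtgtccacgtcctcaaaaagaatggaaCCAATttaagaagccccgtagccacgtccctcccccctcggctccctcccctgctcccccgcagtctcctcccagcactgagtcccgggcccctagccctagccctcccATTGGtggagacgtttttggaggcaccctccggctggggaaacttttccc
Col3a1: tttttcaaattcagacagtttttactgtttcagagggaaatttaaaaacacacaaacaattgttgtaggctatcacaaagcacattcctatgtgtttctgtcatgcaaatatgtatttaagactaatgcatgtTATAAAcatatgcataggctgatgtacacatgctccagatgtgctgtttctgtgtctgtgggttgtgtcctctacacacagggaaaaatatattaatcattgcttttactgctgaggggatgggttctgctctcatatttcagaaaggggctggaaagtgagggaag
The Col1a2 sequence had 61% G and C and the Col3a1 sequence 37.7%, against a median of 52.7% over 27025 promoters. Col1a2 held 2 GC boxes, at -205 and -188 from the start, and 2 CCAAT boxes, 1 of them at the start itself on the opposite strand; 35.9% of all promoters of this length held GGGCGG and 37.9% held CCAAT. Col3a1 held neither, but 1 TATAAA at -117 from the start (14.2% of promoters) and 4 E-boxes (CANNTG, the core bound by MyoD and related factors, in 72.1% of promoters), which are not in capitals. Col1a2 had no E-box, and the CArG box, in 1.57% of promoters, matched neither. These are letter matches, and binding was not measured.

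Library depth was 8759266 to 15891204 reads on chromosomes 1 to 19 and X, with no repeated position and strand in any file. Reads were counted per region and are given per 1000000 reads (RPM), or per kb per 1000000 reads (density) where genes of different length are compared. In windows free of peaks, density was 0.216 ± 0.0201 in myoblasts and 0.364 ± 0.0116 in myotubes (SD, n = 3). The median 10 kb window accordingly had a log2 fold change of 0.78 (myotubes against myoblasts), so a gene at background level also shows a rise in RPM. Changes are therefore given also relative to that median, and with factors taken from the windows (background scaling, median 0.08). Most of these windows hold no peak. Changes are also given as the density of a gene over that of its own flanks, which needs no scaling between libraries. This ratio is not free of background, because more background reads in a library lower the ratio of an enriched gene. Whether the precipitation worked equally well in both groups was not tested.

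In growing myoblasts the 4 genes carried very different amounts of H2Bub. Density ran from 0.273 ± 0.0844 over Col1a1 to 0.672 ± 0.0606 over Col1a2, 1.01 ± 0.151 over Col3a1 and 1.14 ± 0.0899 over Fn1 (SD, n = 3). Col1a1, Col1a2 and Col3a1 did not overlap in their library values, whereas Col3a1 (0.839 to 1.12) and Fn1 (1.04 to 1.21) did. Relative to peak-free windows of the same library these densities were 1.26 ± 0.306, 3.15 ± 0.57, 4.75 ± 1.02 and 5.33 ± 0.716 times as high. In myotubes the genes lay close together, at 0.422 ± 0.0529 for Col3a1, 0.457 ± 0.0506 for Col1a1, 0.517 ± 0.0318 for Col1a2 and 0.58 ± 0.0259 for Fn1, or 1.16 ± 0.113, 1.26 ± 0.159, 1.42 ± 0.0999 and 1.59 ± 0.108 times the peak-free density. There the library values of Col3a1 and Col1a1, and of Col1a1 and Col1a2, overlapped, while the lowest of Fn1 (0.562) was just above the highest of Col1a2 (0.549). No input library was used here, so densities of different genes are not corrected for how well their sequence is recovered.

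**Figure D1:**
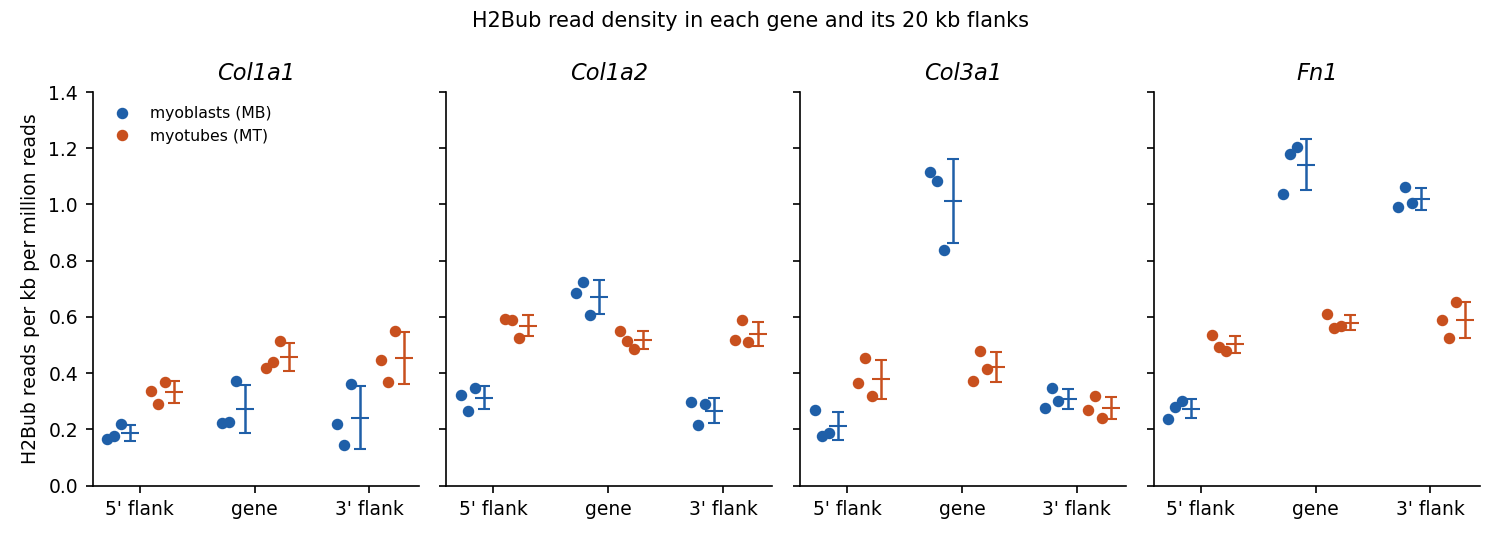
H2Bub reads per kb per 1000000 reads in each gene interval and in the 20 kb on its 5' and 3' sides; points are single libraries (blue, myoblasts; orange, myotubes), bars the mean ± SD of 3. In myoblasts Col1a2, Col3a1 and Fn1 stand well above their 5' flanks, and in myotubes they are close to them (mean ratios 0.907 to 1.15). Col1a1 is slightly above its 5' flank in both states (mean ratio 1.43 in myoblasts and 1.38 in myotubes). The 3' flank of Fn1 is itself high in myoblasts.

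Fn1 carried the most reads, and H2Bub fell in each of the 6 windows of 10 kb inside it. The interval held 70.6, 80.3 and 82.0 RPM in the 3 myoblast libraries and 41.4, 38.2 and 38.6 RPM in the myotube libraries. All 3 myotube libraries were below all 3 myoblast libraries, by a wide gap. The log2 fold change was -0.96 (SE 0.36, limma voom adjusted p = 0.0139), which is -1.75 relative to the median window; with background scaling it was -1.68 (SE 0.47, adjusted p = 0.00602). With total reads, this call on the whole interval was lost with limma-trend (adjusted p = 0.2), with the replicate number as a block (0.126) and without any 1 myoblast library (0.104 to 0.154), all at log2 fold changes of -1.03 to -0.92; fitted among windows of 40 kb, nearer its own length, it held (-0.95, SE 0.21, adjusted p = 4.374e-05). With background scaling the limma voom call was lost in the same fits, with limma-trend (adjusted p = 0.404), the block (0.148) and without MB replicate 1, 2 or 3 (0.14, 0.107 and 0.0578), and held among 40 kb windows (-1.71, adjusted p = 8.89e-06). Each of the 6 windows stayed lower at an adjusted p under 0.05 in the 15 fits run on them.

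Relative to both flanks, Fn1 was higher in every myoblast library than in any myotube library. Its density was 1.69, 1.76 and 1.85 times that of the flanks in myoblasts and 1.08, 1.10 and 1.00 times in myotubes. The log2 difference was -0.73 (exact permutation test, two-sided, n = 3, p = 0.1, the smallest that 3 against 3 libraries can give, 0.133 adjusted over the 4 genes). The 3' flank, on the side of Atic, was itself high in myoblasts: it held 8 MB peaks and 20.4 ± 0.767 RPM in myoblasts against 11.8 ± 1.28 RPM in myotubes (log2 fold change -0.81, SE 0.23, limma voom adjusted p = 0.00249). Density in myoblasts dipped to 0.39 ± 0.179 between 70 and 72 kb from the 5' edge, just past the 3' end of the interval, before rising again. Against the 5' flank alone, a comparison added after the data were seen, Fn1 stood at 4.38, 4.20 and 3.99 in myoblasts and 1.14, 1.14 and 1.18 in myotubes, a log2 difference of -1.86.

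Within Fn1, H2Bub in myoblasts was high over nearly all of the gene, with a moderate excess toward the 5' end. The first 2 kb had a density of 0.668 ± 0.187, the stretch from 6 to 8 kb had 1.86 ± 0.216 and that from 20 to 22 kb had 2.07 ± 0.717, the highest of the gene; the last 2 kb still had 0.705 ± 0.126. In the same stretches myotubes had 0.42 ± 0.188, 0.693 ± 0.134, 0.624 ± 0.153 and 0.683 ± 0.0516. Each gene was cut into 3 segments of equal length. The 5' segment of Fn1 held 42.1%, 41.9% and 39.2% of the gene's myoblast reads and 34.2%, 30.03% and 37.6% of its myotube reads. The fall of -7.15 percentage points separated the groups, at the smallest p the design allows (exact permutation test, two-sided, n = 3, p = 0.1; 0.171 adjusted over 12 shares). Density over the 5', middle and 3' segments fell from 1.405 ± 0.0873, 1.06 ± 0.106 and 0.964 ± 0.11 to 0.59 ± 0.0735, 0.582 ± 0.0537 and 0.567 ± 0.0458. The 3 myotube densities differed by less than their SDs.

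Col3a1 had the sharpest pattern, a block of H2Bub over the first part of the gene in myoblasts that was far lower in myotubes. The interval held 43.5, 42.2 and 32.7 RPM in myoblasts and 14.5, 18.6 and 16.2 RPM in myotubes. MB replicate 3 was the lowest of the myoblast libraries and still well above the highest myotube library. The log2 fold change was -1.29 (SE 0.28, limma voom adjusted p = 0.000235), which is -2.07 relative to the median window, and it was -2.01 with background scaling (SE 0.37, adjusted p = 1.668e-05). Relative to its flanks the gene was at 4.10, 4.13 and 3.42 in myoblasts and at 1.17, 1.23 and 1.49 in myotubes, a log2 difference of -1.58 (exact permutation test, two-sided, n = 3, p = 0.1, adjusted 0.133).

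The block began close to the start of Col3a1 and ended about 14 kb into the gene. In bins of 2 kb from the 5' edge, myoblast density was 0.731 ± 0.0926, 1.64 ± 0.301, 2.59 ± 0.191, 2.73 ± 0.697, 2.36 ± 0.47, 1.43 ± 0.369 and 1.00 ± 0.319, and then 0.501 ± 0.268 from 14 to 16 kb (SD, n = 3). In myotubes the same 8 bins ranged from 0.259 to 0.637, the highest being again the bin from 6 to 8 kb. That bin had 0.637 ± 0.0611, above the 0.364 ± 0.0116 of peak-free windows in myotubes. The densest single kb, 45374000 to 45374999, held 32, 36 and 33 myoblast reads and 6, 5 and 9 myotube reads; at most 1.8% of its positions and strands were used in any library, so the absence of repeated positions in the files left room for far more reads. The 2 kb just upstream of the interval had 0.247 ± 0.119 in myoblasts and 0.417 ± 0.236 in myotubes.

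The rest of Col3a1 was lower but not empty in myoblasts. Its 5' segment held 59.4%, 65.9% and 59.4% of the gene's myoblast reads and 34.6%, 35.5% and 30.6% of its myotube reads, the latter near an even spread over the gene. This difference of -28.0 points was the largest of the 12 shares compared (exact permutation test, two-sided, n = 3, p = 0.1, adjusted 0.171). Against the 5' flank, the 5', middle and 3' segments of myoblasts stood at 9.15 ± 2.605, 2.66 ± 0.241 and 2.92 ± 0.398, and those of myotubes at 1.13 ± 0.0736, 1.05 ± 0.197 and 1.202 ± 0.256. Each segment thus separated the groups. Toward the 3' end, from 36 to 38 kb, a second small rise had 0.999 ± 0.162 in myoblasts and 0.585 ± 0.181 in myotubes. The 3' flank, on the side of Col5a2, had a log2 fold change of -0.16 with total reads (limma voom adjusted p = 0.425) and of -0.86 with background scaling (adjusted p = 0.0011), while the 5' flank had 0.88 and 0.15.

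Col1a2 carried a layer of H2Bub in myoblasts, at a lower density than Col3a1 or Fn1. In myotubes the gene was close to the level of the surroundings. In bins of 2 kb from the 5' edge, myoblast density was 0.251 ± 0.0353 and 0.436 ± 0.166 in the first 4 kb. From 4 to 14 kb it was 0.822 to 0.906, and from 18 to 20 kb it was 0.504 ± 0.0861. The interval held 25.4, 26.8 and 22.4 RPM in myoblasts and 20.3, 19.04 and 18.0 RPM in myotubes. The groups did not overlap, but the gap in RPM was small, and the log2 fold change of -0.38 did not pass the test (SE 0.26, limma voom adjusted p = 0.161). Relative to the median window the change was -1.16. With background scaling the fold change was -1.10 and passed (SE 0.33, adjusted p = 0.011), a call that was lost without MB replicate 1 or 2 (adjusted p = 0.0978 and 0.0893), with limma-trend (0.0847) and with the replicate block (0.121); fitted among 40 kb windows the gene was called lower with total reads too (-0.39, SE 0.14, adjusted p = 0.00967). So whether Col1a2 passed depended on the scaling and on the rows fitted with it.

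The comparison with its flanks was clearer for Col1a2. Density in the gene was 2.22, 3.01 and 1.91 times that of the flanks in myoblasts and 0.987, 0.873 and 0.937 times in myotubes, where every library fell just below 1. The log2 difference was -1.33 (exact permutation test, two-sided, n = 3, p = 0.1, adjusted 0.133). Both flanks rose in RPM as the genome background did, by log2 fold changes of 0.89 (SE 0.20) on the 5' side and 1.03 (SE 0.20) on the 3' side (limma voom adjusted p = 0.000295 and 6.519e-05). By segment its reads were shared almost evenly in myoblasts, with 35.0% ± 3.21 in the 5' segment and 29.99% ± 1.65 in the 3' segment. In myotubes these shares were 28.3% ± 2.64 and 36.9% ± 3.38 (exact permutation test, two-sided, n = 3, p = 0.1 for each, adjusted 0.171).

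Col1a1, whose product pairs with that of Col1a2, had almost no H2Bub above background in either state. The interval held 37, 43 and 106 reads in myoblasts, or 3.98, 4.10 and 6.67 RPM, and 66, 73 and 134 reads in myotubes, or 7.53, 7.90 and 9.26 RPM. All myotube libraries were above all myoblast libraries, and the log2 fold change was 0.74 (SE 0.21, limma voom adjusted p = 0.00185). The median window moved by as much: the change is -0.04 relative to the median window and 0.08 with background scaling (SE 0.22, adjusted p = 0.859), and the flanks rose by 0.79 and 0.93. Relative to its flanks the gene was at 1.14, 1.43 and 1.27 in myoblasts and 1.07, 1.33 and 1.12 in myotubes (log2 difference -0.13; exact permutation test, two-sided, n = 3, p = 0.4), which turned to 0.32 with flanks of 50 kb. MB replicate 3 had 1.595 times its peak-free density over the gene against 0.999 and 1.18 in MB replicates 1 and 2. At 37 to 134 reads per library, no pattern along the gene was detectable, and the shares of its segments overlapped between the groups.

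Against their own flanks, Col1a2, Col3a1 and Fn1 thus each had all 3 myotube libraries below all 3 myoblast libraries, and Col1a1 did not. Among 61361 stretches of 40 kb over the genome compared with flanks of 20 kb, 13.0% had this order. Most of these stretches held no peak, so 13.0% is not the share among regions with the mark. In the whole MB peak list, 78.9% of peaks had this order in RPM, so lower values in myotubes were not limited to these genes. That list is the one of the myoblast group itself, and RPM is not a ratio to flanks. The 78.9% is therefore no independent measure of how common the fall is. In the 35385 stretches without a peak, the 5th to 95th percentile of the mean ratio of 3 libraries was 0.641 to 1.55 in myoblasts and 0.653 to 1.52 in myotubes. This range holds for 40 kb and was not fitted to the length of each gene, such as Col1a1 (18 kb) or Fn1 (68 kb). The mean ratios of Col1a2 (2.38), Col3a1 (3.88) and Fn1 (1.77) were above this range in myoblasts and all 4 genes were inside it in myotubes (0.932, 1.298 and 1.06, and 1.17 for Col1a1). Col1a1 was inside it in both states (1.28 in myoblasts).

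**Figure D2:**
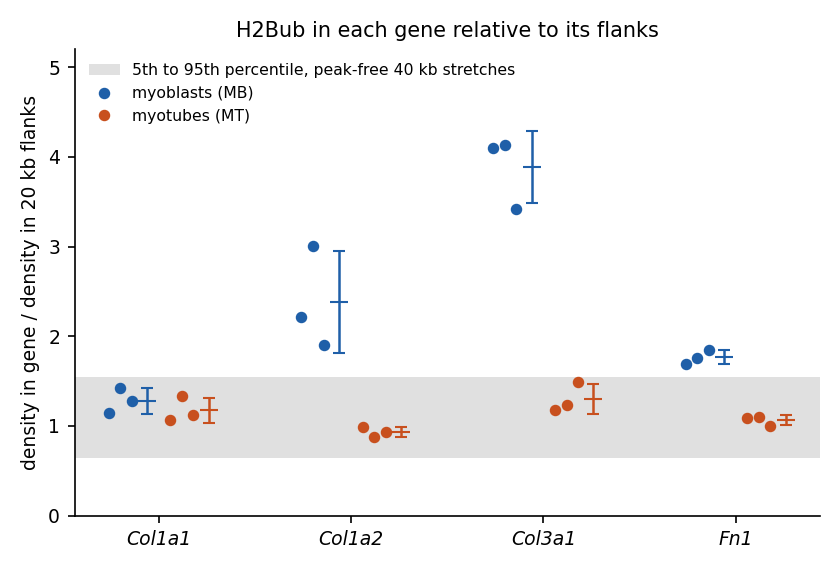
Density in each gene divided by density in its 20 kb flanks. Points are libraries and bars mean ± SD of 3. The grey band spans the 5th to the 95th percentile of 40 kb stretches without peaks, over both groups. It is made from means of 3 libraries, not from single libraries. Myoblast values of Col1a2, Col3a1 and Fn1 lie above the band and all myotube values lie within it.

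The size of the change in RPM differed between the genes as far as 3 libraries per group can show. No background was subtracted for this. Relative to peak-free windows, the genes ran from 1.26 to 5.33 in myoblasts and only from 1.16 to 1.59 in myotubes. Differences in change were thus not separated from differences in myoblast level. For each of the 6 pairs, the log2 ratio of the RPM of both genes was taken within a library and compared between groups. Col1a1 moved up relative to Col1a2 by 1.16, relative to Col3a1 by 2.04 and relative to Fn1 by 1.76, and Col1a2 moved up relative to Col3a1 by 0.88 and relative to Fn1 by 0.60 on the log2 scale. In these 5 pairs the groups did not overlap (exact permutation test, two-sided, n = 3, p = 0.1, adjusted 0.12 over 6 pairs). Col3a1 and Fn1 did not separate: Col3a1 to Fn1 was -0.98 ± 0.317 in myoblasts and -1.27 ± 0.239 in myotubes, a difference of -0.28 (exact permutation test, n = 3, p = 0.3), with library values of -1.33 to -0.70 and -1.52 to -1.04. The log2 ratio of Col1a1 to Col1a2, whose products form 1 fibre, was -2.67, -2.71 and -1.75 in the myoblast libraries and -1.43, -1.27 and -0.96 in the myotube libraries.

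In all, 13 windows of 10 kb lay wholly inside the genes, and show where along each gene the change lay. Of these 13, 9 were lower, 1 was higher and 3 were not called with total reads (limma voom, adjusted p under 0.05), where 13.1% of 233813 windows in the genome were lower and 70.9% higher. With background scaling 12 were lower and 0 higher, against 18.8% lower and 2.15% higher in the genome. Their median log2 fold change was -0.81, against 0.78 over all windows. Windows of 1 gene are neighbours and not independent of each other. Most windows in the genome hold no peak, so the genome shares are not those of regions with the mark.

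The window at the 5' end of Col3a1, 45370001 to 45380000, changed most. It held 22.8, 24.5 and 17.2 RPM in myoblasts and 4.00, 5.09 and 4.22 RPM in myotubes, a log2 fold change of -2.29 (SE 0.24, limma voom adjusted p = 1.056e-09), and 1.29% of all windows had a lower one. The next 2 windows of Col3a1 had -0.70 (adjusted p = 0.00283) and -0.34 (0.11); with background scaling the latter was lower too (-1.07, adjusted p = 3.436e-05). In Fn1 the 6 windows were alike: their log2 fold changes lay between -1.33, at 71680001 to 71690000, and -0.81, at 71660001 to 71670000, the highest adjusted p being 0.000681. In Col1a2 the window nearest the start, 4460001 to 4470000, was lower (8.94, 8.58 and 7.87 RPM against 5.14, 5.52 and 4.42; log2 fold change -0.77, SE 0.20, adjusted p = 0.000941) and the other two were not called (-0.32 and -0.09). With background scaling both of these were lower (-1.01 and -0.82, limma voom adjusted p = 0.000173 and 0.00204). The single window of Col1a1, 94800001 to 94810000, was higher with total reads (0.53, SE 0.21, adjusted p = 0.0185), below the shift of the median window, and at -0.17 with background scaling; this call was lost without MB replicate 2 (0.44), MT replicate 2 (0.50) or MT replicate 3 (0.49).

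**Figure D3:**
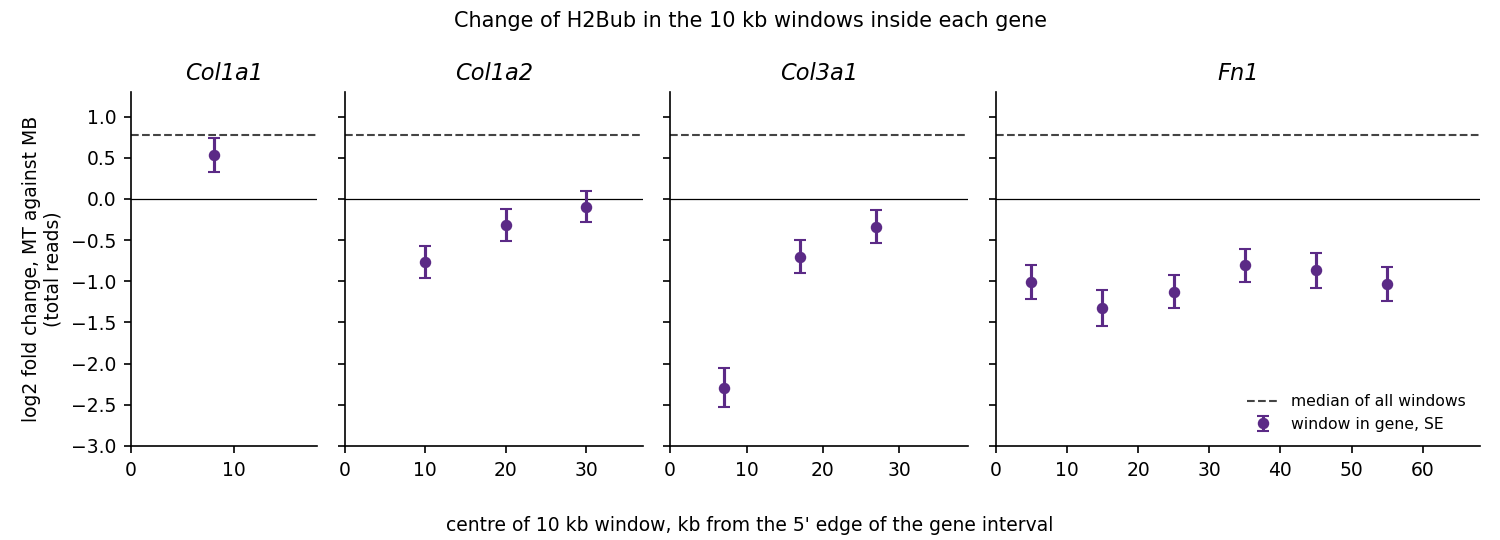
Log2 fold change (myotubes against myoblasts, total reads) of each 10 kb window inside a gene, with its standard error, against the distance of its centre from the 5' edge; the dashed line is the median of all windows, 0.78. All 13 windows lie below the dashed line, Col3a1 falls most at its 5' end (-2.29) and Fn1 falls evenly.

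In bins of 2 kb, where 10.0% of the genome had all myotube libraries below all myoblast libraries and 33.5% the reverse, Fn1 had 21 of 34 bins lower and 0 higher, Col3a1 9 of 19 lower and 0 higher, and Col1a2 5 of 18 lower and 0 higher. Col1a1 had 0 of 9 lower and 4 higher. In Col3a1, 7 of the 9 lower bins were the first 7 of the gene. The genome shares again come mostly from bins without a peak.

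**Figure D4:**
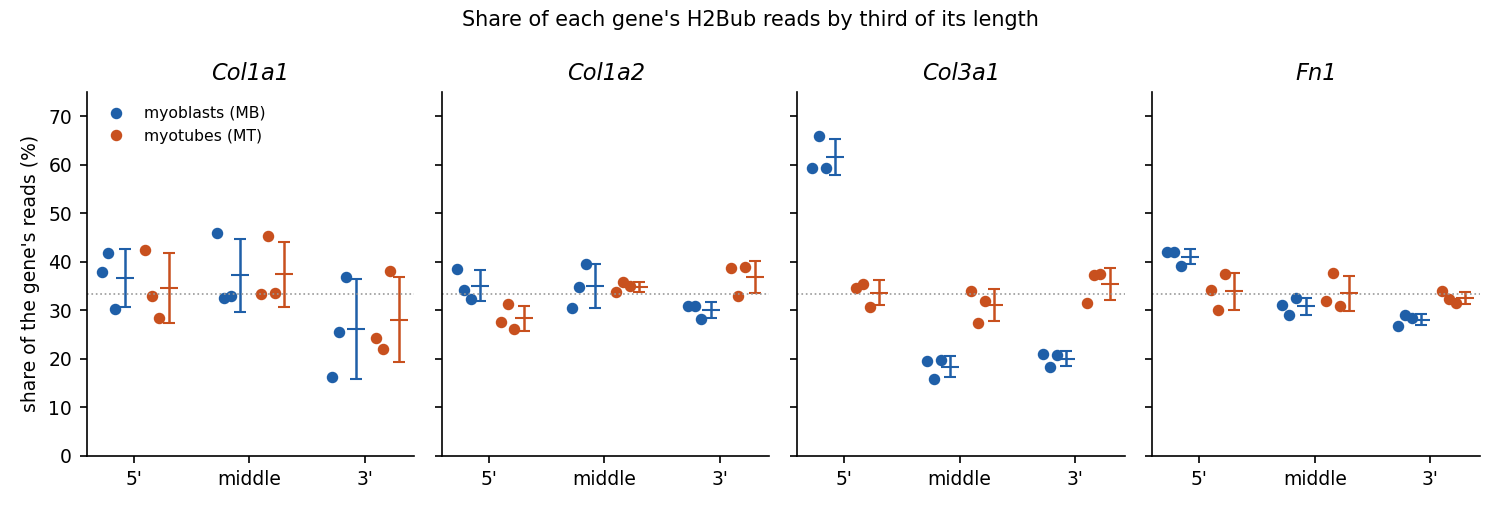
Share of a gene's reads in its 5', middle and 3' segment, in percent; points are libraries, bars mean ± SD of 3, and the dotted line marks an even spread. In Col3a1 the 5' segment holds 59.4% to 65.9% in myoblasts and 30.6% to 35.5% in myotubes. The shares of Col1a2 and Fn1 lie nearer to the line than these myoblast shares. Those of Col1a1, with few reads, scatter from 16.2% to 45.9%.

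The authors' peak lists, 1 per group, showed the same order of the genes. Col1a1 held no MB and no MT peak. Col1a2 held 2 MB peaks covering 1.58% of its interval, Col3a1 held 12 covering 17.7% and Fn1 held 36 covering 19.4%. Over all 10 kb windows with reads, MB peaks covered 4.13%. Of the Col3a1 peaks 11 lay in the 5' segment and 1, at 45404194 to 45404429, in the 3' segment; of the Fn1 peaks 18 lay in the 5' segment, 11 in the middle and 7 in the 3' segment. Peaks in Fn1 were 159 to 718 bp wide and those in Col3a1 236 to 1206 bp. MB peaks held 48.7% ± 2.26 of the myoblast reads of Col3a1 and 35.2% ± 2.25 of those of Fn1; of the myotube reads the same bases held 19.9% ± 2.11 and 24.9% ± 1.08. All 3 myotube libraries were below all 3 myoblast libraries in 11 of 12 MB peaks of Col3a1 and 24 of 36 of Fn1, and in 0 of the 2 of Col1a2; in the whole list this held for 78.9%, and the reverse, found in none of these genes' peaks, for 0.000523%. The MB list is that of the myoblast group itself, so its peaks are no independent choice of regions.

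The MT list, much shorter than the MB list, had 1 peak in Col1a2, 1 in Col3a1 and 2 in Fn1. They covered 0.654%, 0.797% and 0.962% of these intervals, where MT peaks covered 0.314% of all 10 kb windows with reads. Only the 2 in Fn1 overlapped an MB peak. The Col1a2 peak, at 4486013 to 4486254 in the 3' segment, held 7, 6 and 5 myotube reads and 2, 3 and 3 myoblast reads, and was the only 1 of the 4 in which all myotube libraries had a higher density than all myoblast libraries, which held for 23.7% of the MT list, and the reverse for 34.7%. The Col3a1 peak, at 45405700 to 45406010 near the 3' end, held 3, 3 and 6 against 5, 2 and 5. The Fn1 peaks, at 71690612 to 71690989 and 71691822 to 71692097, held 7, 1 and 8 against 6, 7 and 5, and 3, 3 and 8 against 1, 4 and 6. In the last 3 of these the groups overlapped, at 1 to 8 reads per library.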

How the data were processed

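Chromatin precipitated with an H2Bub antibody was sequenced in 3 MB and 3 MT libraries. The authors deposited, for each library, where and on which strand its reads map, and 1 peak list per group with boundaries and no score; both are other values than counts, on mm9 per the submitters' processing notes. Aligner, read length, filters and peak caller: not given in the sources used here. The genes, lists and tests were chosen with earlier results of these data known.

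Reads were counted here in the 4 intervals, their 8 flanks of 20 kb and all 10 kb windows, scaled by reads on chromosomes 1 to 19 and X, and fitted in 1 table with limma 3.58.1 (voom, two-sided) under R 4.3.3; p-values were Benjamini-Hochberg adjusted over all rows, with a threshold of 0.05. A row needed 15 reads in all and, in 3 libraries (2 with 1 library left out), the equivalent of 10 reads in a library of median size; all 4 intervals passed. Background scaling used trimmed mean of M-values factors over the windows. The fit was also run on simulated data in which few windows changed. There was no shift of the other windows there, so that run does not cover the setting of these data. Values per library were compared by exact permutation. The text names each gene, each window wholly inside it and its densest bins. Alternatives covered scaling, fit, block, libraries left out, floor, read positions (shifted to the fragment centre by 75 bp on the plus and 29 bp on the minus strand), trimmed intervals, flank widths, other cuts of the genes, window size and peak width. Col1a1 and Fn1 were oriented from general knowledge of the genes. Other matrix genes were not analysed here. Versions were Python 3.11.15, pandas 2.3.3, matplotlib 3.10.9, NumPy 2.4.6 and SciPy 1.17.1.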

Additional observations from a re-analysis of the deposited data

How the results depend on the processing

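Of 300 values of the alternatives for the main comparisons, 256 kept their direction and side of the threshold or moved little; the cause of the exceptions was not tested. The Col1a1 interval lost its call with background scaling (0.079), also with the replicate block (0.126), limma-trend (0.0689) or 40 kb windows (0.0055); with 1 library left out it lay between -0.12 and 0.17 there (-0.1241, -0.0051, 0.1657, 0.1236, 0.1279 and 0.0054 without MB replicates 1 to 3 and MT replicates 1 to 3), against 0.64 to 0.99 with total reads. The Col1a2 interval gained a call with background scaling (-1.10; -1.26, -1.17, -1.05 and -1.08 without MB replicate 3 and MT replicates 1 to 3), 40 kb windows (-0.39) and both (-1.14). The Fn1 interval lost its call with the replicate block (-0.96), limma-trend (-0.97), both of these under background scaling (-1.67 and -1.68), and without a myoblast library (-1.03 to -0.92; under background scaling -1.85, -1.61 and -1.75 for MB replicates 1 to 3). The Col3a1 interval was called in all 23 alternatives. The Col1a1 window turned to -0.17 with background scaling, to -0.15 with the block added and to -0.16 with limma-trend added. Windows called higher numbered 5029 with background scaling and 6814 with the block added. The Col1a1 ratio to flanks turned to 0.32 with 50 kb flanks. Shares of Col1a1 reads changed sign when the gene was cut in 2 (2.45 and -2.45 points) and with 1 library left out (-6.01 to 1.02, -3.72 to 4.59 and -3.11 to 7.17 points for the 5', middle and 3' segment, with 0.54, -2.11, -1.88, -3.12 among them), as did the middle of Col1a2 (-2.41 to 2.14, with 0.40). Among the wider 50% of peaks, Col1a2 kept 1 MB and 0 MT peaks and Fn1 13 MB peaks. Background scaling with other fits or libraries left out, 40 kb windows and the 5' flank alone were added after the data were seen. Same-numbered libraries did not deviate together over the 10 kb windows (correlations 0, -0.169 and 0.15, others -0.243 to 0.208). Low read counts per window could hide a shared deviation, so whether the numbers pair libraries was not settled. The block changed only the calls named here and that of Col1a2 under background scaling. A fit with 1 library left out has 5 libraries. At 37 to 134 reads per library, depth limits Col1a1 most.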
